A study of Mus musculus with 32 samples.

Results

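The ribosome of the cytosol is built from ribosomal RNA and a fixed set of proteins, and the genes examined here encode those proteins. They were chosen by symbol in the array's annotation: Rpl or Rps, a number and at most 1 letter (a, x, y or l), or Rplp0 to Rplp2, leaving out Rps4l and the Rps6k kinases. This gave 44 of the 18193 genes that at least 1 probe set names alone, 24 of the large subunit and 20 of the small subunit. Each gene is represented by the probe set with the highest mean over all 32 arrays. A further 28 symbols of the rule, among them Rpl3, Rpl5, Rpl10, Rpl23, Rpl36a and Rplp1, are found only in probe sets shared with other symbols and were not analysed here.

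The study profiled left ventricle of 32 mice of strain C57Bl6, labelled as 10 weeks of age, on Affymetrix mouse 430 2.0 arrays. Each of the 8 groups holds 4 mice of 1 sex and 1 genotype, wild type or lacking estrogen receptor beta (labelled knockout). Within each sex and genotype 1 group had transverse aortic constriction (TAC), which loads the ventricle with pressure, and 1 a sham operation. Constriction lasted 9 weeks according to the labels of the knockout mice, and those of the wild-type mice state no duration, so duration and genotype cannot be told apart in TAC mice. The sources used here do not say how the knockout allele was made. Esr2, the gene of estrogen receptor beta, had a signal of 3.6 to 67.7 (median 13) in the 16 wild-type mice and of 25.8 to 196.8 (median 107.8) in the 16 mice labelled knockout. It was therefore dim throughout and higher in the libraries labelled knockout, which goes against the label. Whether its probe set lies in the deleted part is not known here, so genotype below means the genotype on the label.

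Ribosomal proteins are made in close to equal amounts, because each enters the ribosome in a single copy, apart from the stalk proteins. Their mRNAs typically begin with a cytosine followed by a run of pyrimidines (C or T), the 5′ terminal oligopyrimidine (TOP) tract, through which mTOR and the RNA-binding protein Larp1 control their translation. Growth of heart muscle under pressure load is accompanied by the making of new ribosomes. A few genes have a second copy that serves selected tissues: Rpl3l replaces Rpl3 in the ribosomes of heart and skeletal muscle, Rpl39l stands in for Rpl39 mainly in the testis, and Rps27l, a close relative of Rps27, is a target of p53.

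Windows around the annotated start of 6 genes called after TAC are shown because a TOP tract, where there is one, begins at the start. Sequences were taken from RefSeq (GRCm38.p6), which had an entry for 39 of the 44 genes, with 47 start sites. In each, 30 bases precede the annotated start and 20 follow from it, 5′ to 3′ on the gene's strand. Capitals mark the part of a C-first run of at least 5 C or T that begins within 5 bases of the start, and a run may reach further upstream in lower case. The first annotated start of each gene is given.
Rpl3l (chr17:24727796-24727845, plus strand): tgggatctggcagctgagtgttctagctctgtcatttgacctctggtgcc
Rps27l (chr9:66946056-66946105, plus strand): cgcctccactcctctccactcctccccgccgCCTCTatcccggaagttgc
Rpl35 (chr2:39005112-39005161, minus strand): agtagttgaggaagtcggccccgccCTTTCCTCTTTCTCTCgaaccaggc
Rps26 (chr10:128626487-128626536, minus strand): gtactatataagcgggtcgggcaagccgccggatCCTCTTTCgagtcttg
Rps10 (chr17:27635225-27635274, minus strand): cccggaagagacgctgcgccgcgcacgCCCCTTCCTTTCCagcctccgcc
Rpl19 (chr11:98026680-98026729, plus strand): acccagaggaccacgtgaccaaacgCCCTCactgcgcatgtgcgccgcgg

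Such a run was found at 20 of the 47 start sites (42.6%), against 18.3% of 32851 start sites of all genes. Rpl35 had the longest of those shown, at 16 bases, and Rps10 had 13. Neither annotated start of Rpl3l had one, nor did the other start of Rps27l. The motif CCGGAAG, the core bound by ETS family factors and searched on both strands in the 300 bases around each start, was found at 40.4% of the ribosomal protein start sites and at 8.86% of all. It stands in lower case in the windows of Rps27l and Rps10. GGGCGG, a GC box, was at 48.9% against 35.7%, TATAAA at 10.6% against 13.6%, and AAGATGGC at 6.38% against 2.75%. These are matches of letters, and no array value bears on binding there.

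Signals are the authors' deposited MAS5 intensities, compared as log2(signal + 32). Adding 32 keeps dim probe sets from dominating and understates their change, and all differences below are on that scale. A gene was tested where its mean reached the median of all probe sets, a signal of 106.1; 42 of the 44 genes were among the 11014 tested, and Rpl39l and Rps16 were not. Of the 44, 34 had a mean log2 signal of 12 or more and 10 were dimmer. Those of the 10 that were tested count in the mean of the 42 genes below. Array medians ranged from 101.5 to 127.7, and every array's mean after leaving out the extreme 2% at each end was 500. The highest signal on an array was 42480.3 to 64128.6, except in wild-type female TAC mouse 1, where it was 95436.7. In addition 4 mice lay farthest from their group means on 1 axis of variation of the other genes, described further on. They were wild-type male TAC mouse 1, and female sham mouse 2 and male sham mice 2 and 4 labelled knockout. Results without them are given further on. Counts of calls among these genes are also given after quantile normalization, which gives all arrays one distribution. The level of these genes is that of the whole tissue, in which a change in the share of a cell type and a change in RNA per cell cannot be told apart.

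Ribosomal protein genes as a group moved little after TAC, and in wild-type males the direction of the small shift depended on the scaling. How many of them were called after TAC depended on it too, as given below. In mice labelled knockout of both sexes the mean was higher after TAC on both scales, and in wild-type females it hardly differed as deposited. As deposited, the mean log2 signal of the 42 genes was 13.14 ± 0.06 (SD, n = 4) in wild-type male sham mice and 12.99 ± 0.11 after TAC. Wild-type female shams had 13.21 ± 0.08 and TAC mice 13.20 ± 0.15. The female TAC value included the brightest library, mouse 1 at 13.40. In females labelled knockout it was 13.17 ± 0.14 in sham and 13.24 ± 0.11 in TAC mice, and in males labelled knockout 13.14 ± 0.07 and 13.26 ± 0.04. Only in males labelled knockout did no TAC mouse overlap a sham mouse, at 13.24 to 13.31 against 13.08 to 13.23. After quantile normalization the wild-type male means were 13.09 ± 0.03 in sham and 13.10 ± 0.06 in TAC mice, so the lower value seen as deposited was absent there. On that scale wild-type females had 13.16 ± 0.02 in sham and 13.20 ± 0.05 in TAC mice. Females labelled knockout had 13.16 ± 0.05 and 13.27 ± 0.05, and males labelled knockout 13.14 ± 0.06 and 13.27 ± 0.05. No TAC mouse overlapped a sham mouse there in females labelled knockout, and the males labelled knockout overlapped.

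**Figure D1:**
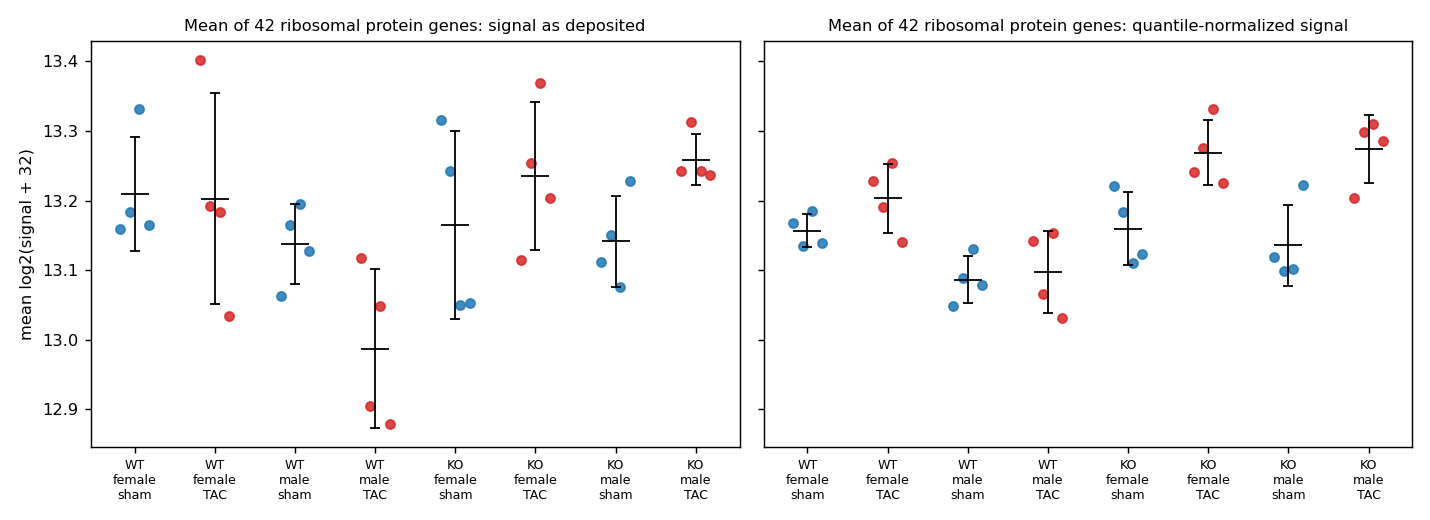
Mean log2(signal + 32) of the 42 tested ribosomal protein genes in each mouse (points; blue sham, red TAC), with the group mean and SD (black; n = 4), for the signal as deposited (left) and after quantile normalization (right). KO marks mice labelled estrogen receptor beta knockout; wild-type male TAC mice 2 and 4 are lowest on the left, at 12.90 and 12.88, and the group mean lies below that of its shams on the left only.

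Gene by gene, limma with Benjamini-Hochberg adjustment over all 11014 genes called none of the 42 in wild-type females at an adjusted p under 0.05, and 1 at an unadjusted p under 0.05, which 16.2% of all genes reached. It called 3.28% of all genes there (2.05% higher, 1.23% lower). In wild-type males it called none of the 42 either, with 7 at an unadjusted p under 0.05 (19.6% of all genes), and 5.56% of all genes (3.11% higher, 2.45% lower). Females labelled knockout had 1 gene called, Rps27l, higher, beside 5.58% of all genes (3.75% higher, 1.83% lower). In males labelled knockout it called 5 higher and 1 lower, and 32.6% of all genes (19.6% higher, 12.9% lower).

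Single mice moved these counts, and the share of all genes called was not counted for the fits without 1 mouse. Without wild-type male TAC mouse 1 limma called 4 genes in that stratum. Without any 1 of female TAC mice 2 and 3 or sham mice 3 and 4 labelled knockout it called none in theirs. In males labelled knockout the 6 calls became 13 without sham mouse 4, and 1 to 3 without TAC mouse 1 or 4 or sham mouse 1, 2 or 3. Across those settings Rps27l was called in the males throughout (limma adjusted p from 0.00127 to 0.0134).

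The median difference of the 42 genes was 0.03 in wild-type females and -0.13 in wild-type males, and 0.07 in females and 0.12 in males labelled knockout. The median of all genes was 0.01 in the first 3 strata and 0.05 in the last. After quantile normalization the medians of the 42 were 0.10, 0.06, 0.13 and 0.14 in the same order, so that of wild-type males changed sign. Limma then called none of the 42 in wild-type females (5 at an unadjusted p under 0.05, as 16.6% of all genes; 3.44% of all genes called, 2.14% higher and 1.3% lower). In wild-type males it again called none (8 at an unadjusted p under 0.05, as 19.1% of all genes; 4.95% of all genes called, 3.02% higher and 1.92% lower). In females labelled knockout it called 1 (6.25% of all genes, 4.23% higher and 2.02% lower), and in males 13 higher and 1 lower (32.2% of all genes, 18.9% higher and 13.3% lower).

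Groups of 4 that did not overlap were counted as well. In wild-type females all TAC mice lay below all shams for Rpl3l and Rpl8, a large-subunit protein of the ribosome's core (6.47% of all genes; 7.82% lay above). In wild-type males they did so for Rpl7, Rpl7a, Rps24, Rps29 and Rps4x (8.11% of all genes; 9.85% above). No gene of the set was separated in females labelled knockout (5.78% of all genes above, 4.19% below). In males Rpl13a, Rpl19, Rpl41, Rps27l and Rps28 lay above (11.5% of all genes; 6% below). After quantile normalization the genes above and below numbered 3 and 1 in wild-type females (7.59% and 6.72% of all genes), 2 and 0 in wild-type males (9.22% and 7.6%), 1 and 1 in females (6.15% and 3.96%) and 8 and 0 in males labelled knockout (11.2% and 6.27%). The 5 genes that were lower in every wild-type male TAC mouse as deposited were not separated after quantile normalization. Beside Rpl3l, the smallest p in each wild-type stratum was that of Rpl8 in females (-0.24 ± 0.13, limma adjusted p = 0.382) and Rps2, a small-subunit protein, in males (-0.39 ± 0.14, limma adjusted p = 0.0877).

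**Figure D2:**
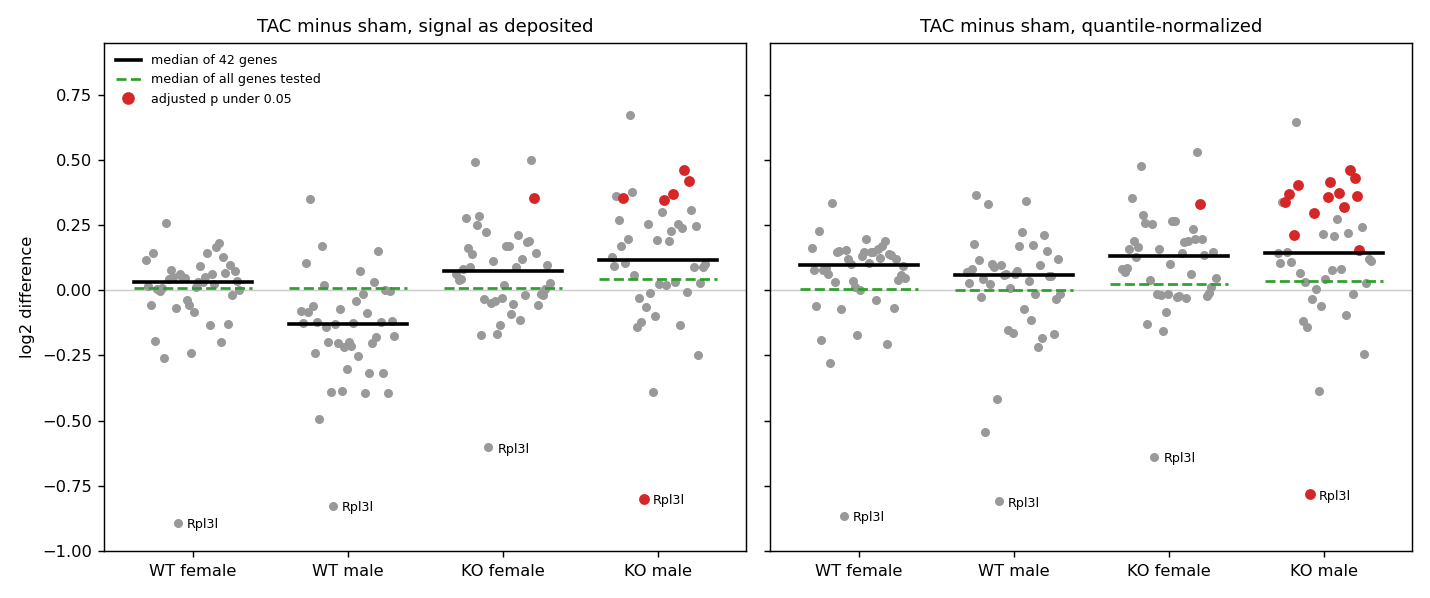
Log2 difference, TAC minus sham, of each of the 42 genes (points) in the 4 strata of 4 against 4 mice, as deposited (left) and quantile-normalized (right). Red points have a limma adjusted p under 0.05, black lines are the medians of the 42 genes, dashed green lines those of all 11014 genes, and Rpl3l is labelled.

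Averaged over the 4 strata, 4 of the 42 genes were called higher after TAC, where 23.5% of all genes were, and 2 lower, where 17.8% were (41.2% in either direction). The higher genes were Rps27l, Rpl35, Rps26 and Rps19 and the lower ones Rpl3l and Rpl7. After quantile normalization 16 were higher, against 23.3% of all genes, and 1 lower, against 18.2% (41.5% in either direction). Of the 6 called as deposited, all but Rpl7 were called there too. Leaving out 1 mouse gave 3 to 8 calls, and the share of all genes was not counted then. The 3′ over 5′ ratios of the actin and Gapdh control probe sets, a measure of RNA quality, also differed with surgery, in opposite directions. That of actin (log2) was 0.53 in sham and 0.22 in TAC mice in wild-type females, 0.64 and 0.24 in wild-type males, 0.67 and 0.26 in females and 0.76 and 0.40 in males labelled knockout. That of Gapdh was higher after TAC in all 4, at -0.34 and -0.27, -0.32 and -0.23, -0.30 and -0.24, and -0.30 and -0.23. With the Gapdh ratio as a covariate 2 of the 6 calls were left, Rpl3l (-0.82, limma adjusted p = 0.00779) and Rps27l (0.22, limma adjusted p = 0.0352). The ratio itself differed with surgery, so this fit also takes out what surgery shares with it.

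Rpl3l, the muscle copy of the core large-subunit protein Rpl3, fell furthest. Its signal in wild-type females was 9096.2, 9057.5, 8697.3 and 8121.6 in sham and 3529.4, 5912.1, 4005.3 and 5792.0 in TAC mice. Every TAC value there lay below every sham value. In wild-type males it was 8533.1, 8290.0, 7916.0 and 8734.8 in sham and 8016.0, 3620.9, 3907.9 and 4300.1 in TAC mice. The groups overlapped there because TAC mouse 1 was at the sham level. In females labelled knockout it was 9881.4, 12452.3, 7588.8 and 8570.4 against 4249.9, 8053.4, 6429.4 and 6800.2 after TAC, and in males labelled knockout 6353.1, 4431.3, 8400.0 and 10437.1 against 6910.8, 6893.5, 2225.8 and 2494.2. Both of these pairs of groups overlapped, and the males labelled knockout had 2 TAC mice within the sham range. The difference in the mean over strata was -0.78 ± 0.15 (SE; limma, Benjamini-Hochberg adjusted p = 0.000131), which is 1.72-fold lower. By stratum it was -0.89, -0.83, -0.60 and -0.80 in the order given, and only that of males labelled knockout passed the test (limma adjusted p = 0.0408; 0.103 in both wild-type strata and 0.26 in females labelled knockout). That call in males was lost without any 1 of TAC mice 3 and 4 and sham mice 1, 3 and 4 (limma adjusted p up to 0.191), and wild-type males passed without TAC mouse 1 (limma adjusted p = 0.0237). The mean over strata passed under all alternatives tried and without any 1 mouse.

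As deposited, 4 of 10 cardiomyocyte markers were called lower too in the mean over strata, where 17.8% of all genes were. Their median was -0.19 on that scale and only -0.03 after quantile normalization. Their mean log2 level was 15.36 to 15.53 in wild-type male sham and 14.92 to 15.15 in TAC mice, and 15.27 to 15.52 against 14.90 to 15.96 in wild-type females. Females labelled knockout had 15.14 to 15.44 against 14.90 to 15.11, and in males 15.06 to 15.36 against 14.87 to 15.24. Of the 9 fibroblast markers 5 were called higher in that comparison and of the 10 macrophage markers 9, where 23.5% of all genes were. The part of cell composition in the fall of Rpl3l was not tested.

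Rps27l, a small-subunit protein close to Rps27, rose in 2 strata and in the mean over strata. Its signal was 7281.0, 7652.1, 7395.3 and 7317.7 in wild-type female sham and 7353.3, 8117.2, 8730.4 and 8287.2 in TAC mice. In wild-type males it was 7687.2, 7566.7, 7618.4 and 7121.0 in sham and 8211.4, 8323.5, 9139.1 and 7678.9 in TAC mice. The ranges of both pairs met, each through 1 TAC mouse. In females labelled knockout it was 9080.1, 9759.8, 7018.5 and 7171.7 against 9417.4, 11330.5, 12072.3 and 9320.7, and in males labelled knockout 7302.5, 7969.1, 7051.8 and 8415.7 against 10601.0, 10034.9, 10025.8 and 10429.2. In the males all TAC mice lay above all sham mice. The difference was 0.26 ± 0.05 (SE) in the mean over strata (limma adjusted p = 0.00014), 0.36 ± 0.10 in females (adjusted p = 0.0338) and 0.42 ± 0.10 in males labelled knockout (adjusted p = 0.00287). It was 0.13 and 0.15 in wild-type females and males, which limma did not call. All 3 probe sets of the gene were called in the mean over strata, at 0.26 to 0.29. Rps27, the relative of Rps27l, and Rpl39, that of Rpl39l, were not called, at 0.03 ± 0.20 and -0.09 ± 0.10. Their probe sets were dim, with mean signals of 287.7 and 346.7 against 8419 for Rps27l. Rps27 had the largest spread within groups of all tested genes of the set, an SD of 0.63. Rpl39l, too dim for the main test, had a difference of 0.66 in wild-type females (exact permutation test, p = 0.114, 0.456 after adjustment over 8 tests). Rps16 had a mean signal of 2.31 over the 32 arrays, near the floor of the scale.

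Rpl35, a protein at the exit tunnel of the large subunit, had a signal of 12932.6, 13643.4, 17824.4 and 11741.2 in wild-type female sham and 17406.4, 15862.3, 18439.6 and 14820.1 in TAC mice. In wild-type males it was 11912.2, 13161.9, 12436.2 and 13196.3 against 18958.4, 12928.7, 15222.2 and 11077.4. In females labelled knockout it was 20995.2, 20215.6, 13440.4 and 13256.1 against 16727.1, 20274.3, 25440.4 and 17558.9, and in males 14151.7, 16567.1, 15128.2 and 22951.7 against 22867.0, 21549.8, 20536.1 and 22822.6. All 4 pairs of groups overlapped, the last through sham mouse 4 alone. Its difference was 0.26 ± 0.08 (limma adjusted p = 0.0132) in the mean over strata. The small-subunit proteins Rps26 (0.21 ± 0.08, limma adjusted p = 0.0411) and Rps19 (0.18 ± 0.07, limma adjusted p = 0.0438), the latter the gene most often mutated in Diamond-Blackfan anaemia, were nearer the threshold, and each call was lost without any 1 of 19 of the 32 mice (limma adjusted p up to 0.0788 and 0.0814). That of Rpl35 was kept without any 1 mouse (limma adjusted p up to 0.0271) and lost in 3 of 13 other settings: with the Gapdh ratio as a covariate (0.12, limma adjusted p = 0.502), with the axis described further on as a covariate (0.12, limma adjusted p = 0.114) and with the probe set that does not end in x or s (0.09, limma adjusted p = 0.205). In males labelled knockout Rpl19 (0.35), Rps10 (0.35), Rps26 (0.46) and Rps19 (0.37) were called higher beside Rps27l, each losing the call without any 1 of at least 4 of the 8 mice.

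Rpl7, a large-subunit protein, differed by -0.25 ± 0.10 (limma adjusted p = 0.0485) as deposited and by -0.16 after quantile normalization (limma adjusted p = 0.212), so its call depended on the scaling. It was also lost without any 1 of 23 mice (limma adjusted p up to 0.0897). Other genes of long interest were not called in the mean over strata as deposited. The stalk protein Rplp0, often used as a reference gene, was at -0.06 ± 0.07 and Rplp2 at 0.07 ± 0.07. Rps6, the small-subunit protein phosphorylated downstream of mTOR, was at 0.03 ± 0.10, from a probe set with a mean signal of only 875.1. Rpl11, which binds Mdm2, was at 0.01 ± 0.06, and Rpl13a, known for silencing of inflammatory mRNAs, at 0.10 ± 0.06. Mean signals of these 2 genes were 14970 and 25910. After quantile normalization Rplp2 (0.21 ± 0.05, limma adjusted p = 0.00077) and Rpl13a (0.23 ± 0.04, limma adjusted p = 3.77e-05) were called, and Rplp0 (0.05) was not. Of the 42 genes 5 as deposited (Rpl35, Rpl37, Rps18, Rps26 and Rps27l) and 19 after quantile normalization were above 0 in all 4 strata, where 27.2% and 26.9% of all genes were. As deposited 4 were below 0 in all 4 (Rpl3l, Rpl7, Rpl7a and Rps4x; 23.2% of all genes), and after quantile normalization 1, Rpl3l (23.4%).

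**Figure D3:**
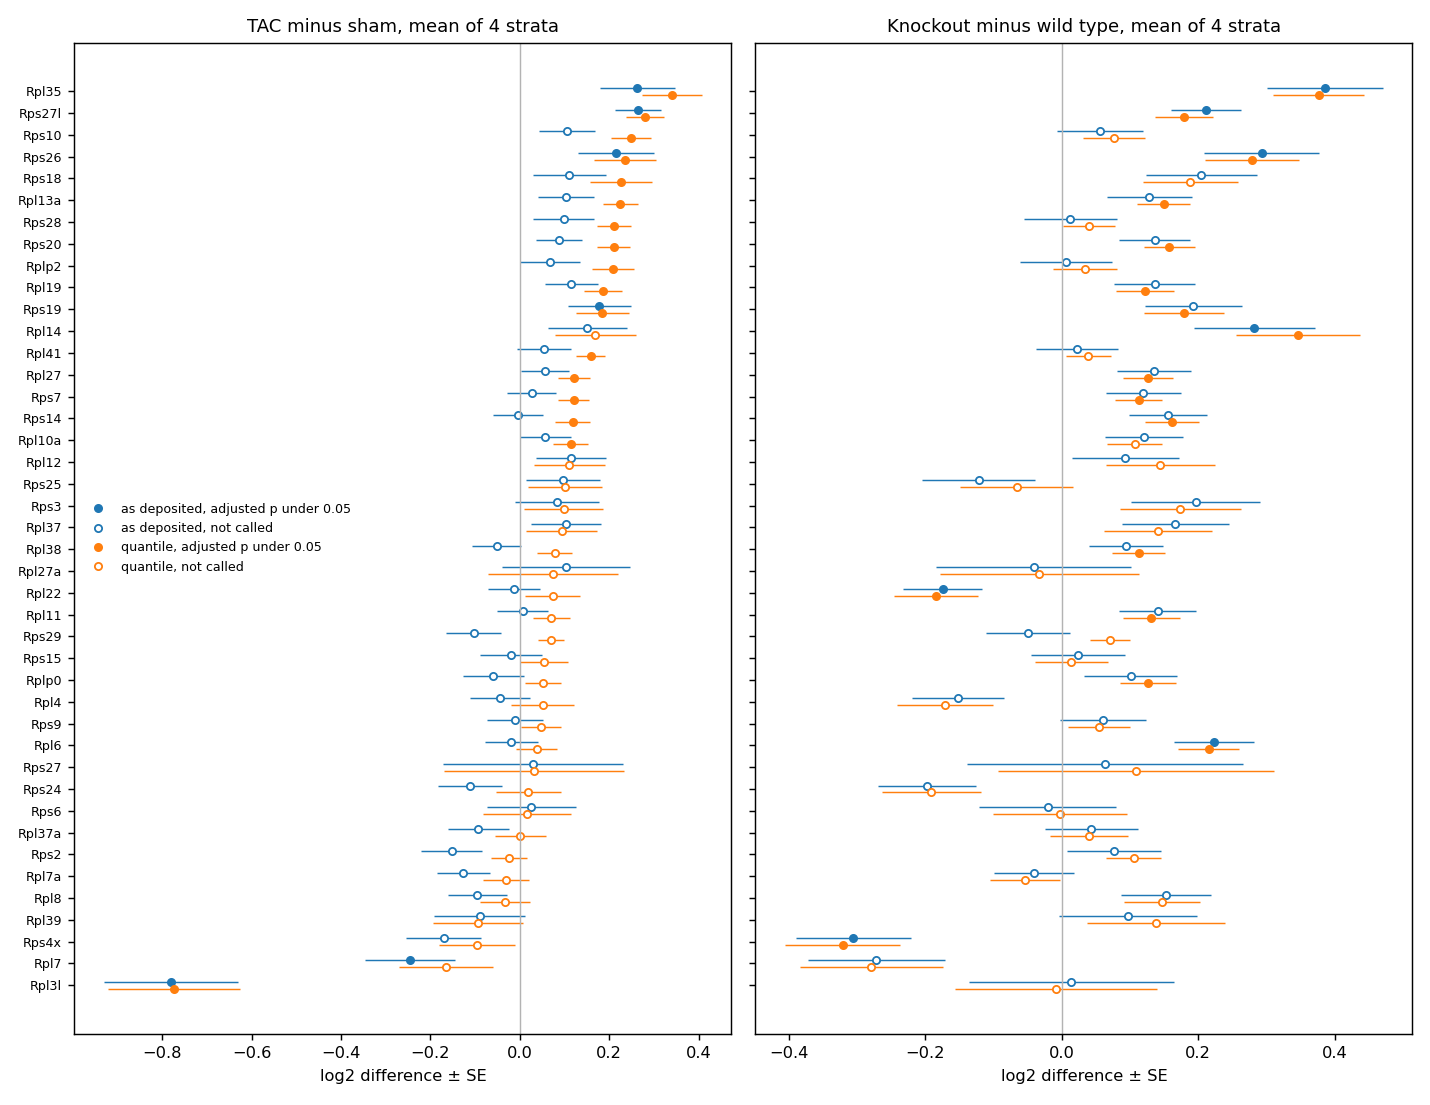
Log2 difference ± SE of each of the 42 genes for TAC minus sham (left) and knockout label minus wild type (right), each the mean of 4 strata, as deposited (blue) and after quantile normalization (orange). Filled points have a limma adjusted p under 0.05, and genes are ordered by the quantile-normalized TAC difference; Rpl3l is lowest on the left and lies near 0 on the right.

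No ribosomal protein gene was called for a sex difference in the TAC response, a genotype difference in it or a difference between the sexes, under either scaling (limma with Benjamini-Hochberg adjustment). The contrasts on the TAC response called 0 of all genes (0%). The sex contrast called 0.154% of all genes as deposited (0.0908% higher and 0.0636% lower in females) and 0.145% after quantile normalization (0.0817% and 0.0636%). As deposited, counts at an unadjusted p under 0.05 were 1 and 0 of 42 for the sex differences in wild type and knockout label, 0 and 13 for the genotype difference in females and males, and 2 for sex. All genes reached it in 1.8%, 7.29%, 2.85%, 13.8% and 6.36% of cases, in that order. For the male genotype difference the median of the 42 was 0.25, with 39 of 42 above 0 (54% of all genes). After quantile normalization it was 0.13, with 30 above 0 (53.2% of all genes). On that scale 5 were at an unadjusted p under 0.05, where 13.4% of all genes were. The genes share the arrays, so these are not 42 separate observations. All genes had a median of 0.04 and 0.03 in that contrast. The largest value in it was that of Rpl27a, a large-subunit protein with a wide spread within groups (1.16 ± 0.40, limma adjusted p = 0.285), followed in p by Rplp2 (0.51 ± 0.19, limma adjusted p = 0.302). Rpl27a also had the smallest p for sex, at 0.39 ± 0.14 higher in females (limma adjusted p = 0.54). For Rps27l the genotype difference of the response was 0.23 ± 0.14 in females (limma adjusted p = 1) and 0.27 ± 0.14 in males (limma adjusted p = 0.393), so its call in the knockout label strata alone was not shown to be a difference between genotypes.

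Across sexes and surgeries, 5 of the 42 genes were called higher in the mice labelled knockout, where 9.1% of all genes were, and 2 lower, where 7.6% were (16.7% in either direction). The counts ranged from 5 to 16 when 1 mouse was left out, and were 16 without wild-type male TAC mouse 1, 15 and 13 without female sham mice 3 and 4 and 11 without female TAC mouse 1 labelled knockout. Shares over all genes were not counted for those fits. Rpl35 was 0.39 ± 0.08 higher (limma adjusted p = 0.00402), Rps26 0.29 ± 0.08 (0.0191), Rpl6 0.22 ± 0.06 (0.0126), Rps27l 0.21 ± 0.05 (0.00722) and Rpl14 0.28 ± 0.09 (0.0302). The X-linked small-subunit gene Rps4x differed by -0.31 ± 0.08 (limma adjusted p = 0.0156) and Rpl22, an RNA-binding large-subunit protein, by -0.17 ± 0.06 (limma adjusted p = 0.039). Rpl14 was dim, with signals of 79.8 to 231.3. The calls of Rpl14 and Rpl22 were lost without any 1 of 5 and of 17 mice (limma adjusted p up to 0.0601 and 0.0691), and the other 5 were kept without any 1 mouse. All 7 were called after quantile normalization too, where 15 genes were higher, against 10.8% of all genes, and 2 lower, against 7.07% (17.9% in either direction). For Rpl35 the 5 tested probe sets ranged from 0.24 to 0.47 and all were called. For Rpl22 they disagreed, at -0.17, -0.10 and 0.17, and the last was 0.33 higher after TAC, where the chosen probe set was at -0.01.

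Genotype groups were separated most often among the male TAC mice. As deposited, every male TAC mouse labelled knockout lay above every wild-type one for 18 of the 42 genes, as for 5.36% of all genes, and below for none, as for 4.47%. Among the 18 were Rpl35 (20536.1 to 22867.0 against 11077.4 to 18958.4), Rps26 (14031.3 to 16541.2 against 8631.7 to 13046.3) and Rpl6 (14935.0 to 16044.8 against 10651.4 to 14739.7). After quantile normalization they were 10 and 0, beside 6.19% and 3.95% of all genes. In male shams 2 genes, Rpl35 and Rpl6, lay above and 1, Rps29, below (3.24% and 3.26% of all genes), and after quantile normalization 8 and 0 (3.57% and 2.61%). Female shams had 0 above and 4 below (3.71% and 2.93%), or 2 and 2 after quantile normalization (4.14% and 2.6%), and female TAC mice 3 and 0 (3.98% and 1.66%), or 4 and 1 (4.62% and 1.55%). The duration of constriction, stated for the knockout label only, bears on the TAC comparisons.

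Some sham groups were split within themselves. Rps4x had a signal of 12581.5, 12618.3, 18348.5 and 17730.5 in female sham mice labelled knockout, against 19692.0, 20961.6, 23165.9 and 19579.0 in wild-type female shams. In male shams labelled knockout it was 19961.1, 21938.0, 18563.5 and 11497.1, against 18962.5, 21183.7, 21305.4 and 20003.4 in wild-type male shams. Mice 1 and 2 were low among those females, and mouse 4 among those males. Rps26 moved the opposite way in the same mice, with 15704.2, 15535.7, 9777.8 and 9335.9 in the female shams and 9408.6, 10667.0, 9806.3 and 14583.6 in the male shams labelled knockout. The wild-type shams were more alike, at 9357.3 to 12300.6 in females and 9700.5 to 10956.0 in males.

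**Figure D4:**
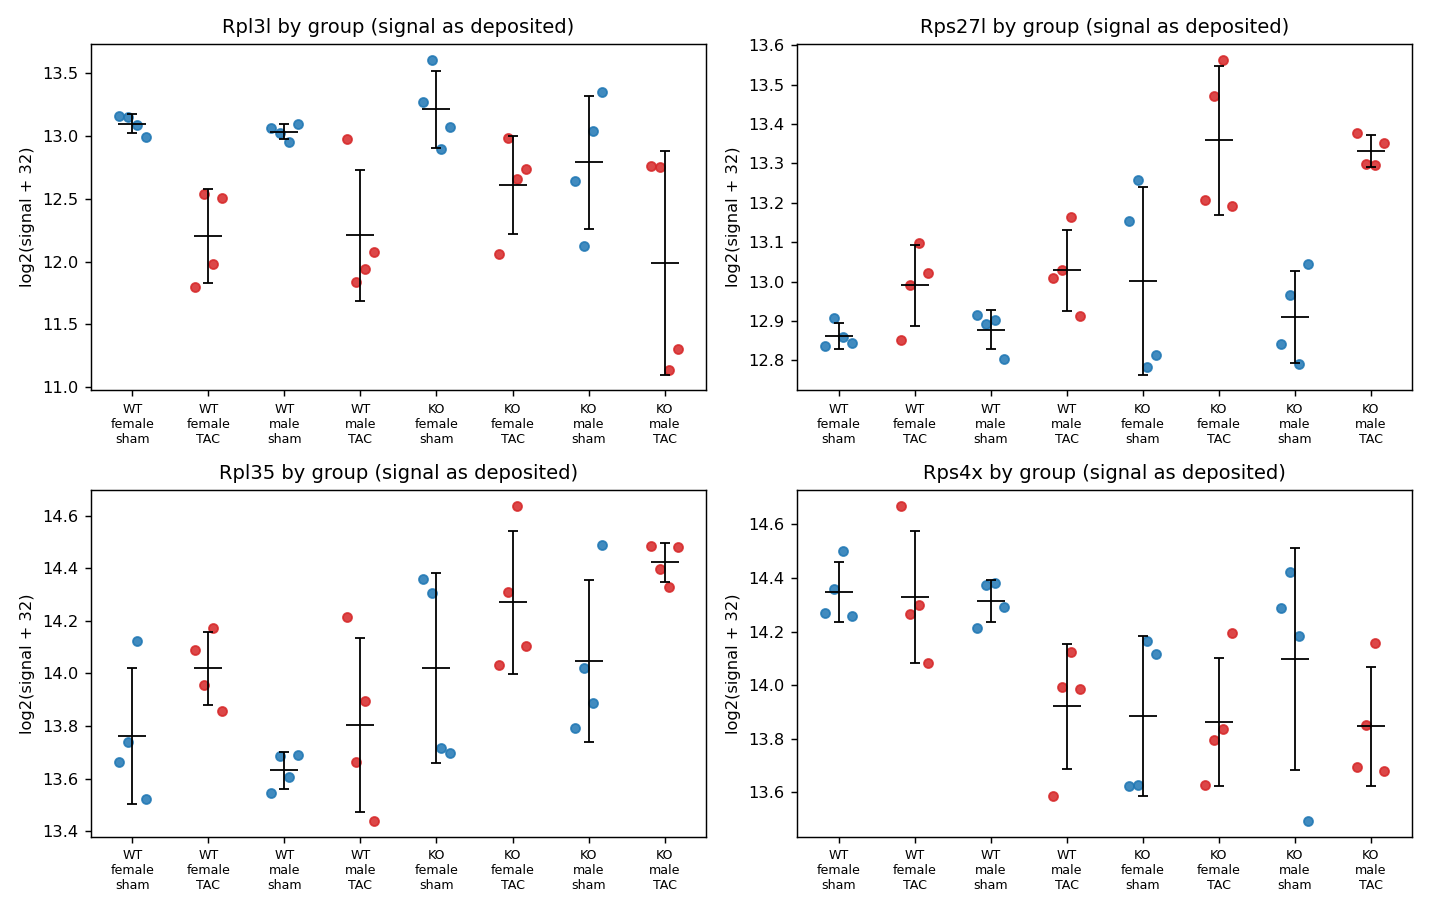
Log2(signal + 32) of Rpl3l, Rps27l, Rpl35 and Rps4x in each mouse (points; blue sham, red TAC) by group, as deposited, with mean and SD (black; n = 4). KO marks mice labelled knockout; the female shams labelled knockout form 2 pairs for Rps27l, Rpl35 and Rps4x.

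To see whether such mice differed in other genes too, the largest axis of variation among mice of the same group was taken from the 10972 tested genes outside the set. It held 30.4% of their variance within groups. Ribosomal protein genes lay at both ends of it. The correlation with it over 32 mice was 0.5 or more for 20 of the 42 genes, led by Rpl8 (0.90), Rps26 (0.82), Rplp2 (0.81) and Rpl19 (0.79). It was -0.5 or less for 5, Rpl7 (-0.88), Rps4x (-0.80), Rps24 (-0.72), Rpl22 (-0.70) and Rps6 (-0.67). Of the other genes 48.9% reached 0.5 in either direction. All 20 of the first genes had a positive and all 5 of the second a negative difference between labelled knockout and wild type, from the same mice. Of all 42 genes 32 had a positive difference, as had 50.5% of all genes tested. Some of the 20 were small, such as Rplp2 (0.006) and Rpl3l (0.014). How often the signs matched among the other genes was not counted. After quantile normalization the signs matched for 18 of 19 and 6 of 9. These correlations are a description, since all genes share the arrays.

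In units of the SD within groups, the group means of the score were -0.46 and -0.51 in wild-type female and male shams, with SDs of 0.31 and 0.08. They were -0.30 and -0.16 in wild-type TAC mice. In mice labelled knockout they were 0.26 ± 1.5 and -0.74 ± 1.73 in female and male shams and 0.84 ± 1.1 and 1.08 ± 0.58 in TAC mice. The wild-type shams were close together, and the shams labelled knockout ran from -1.05 to 1.88 in females and from -2.43 to 1.56 in males. The 4 mice named at the start are those beyond 1.5 SD of their group mean, 3 of them labelled knockout. No gap marks that cut, since wild-type male TAC mouse 1 was at 1.51 and female TAC mouse 4 labelled knockout at -1.39. The labels name no batch or scan date.

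**Figure D5:**
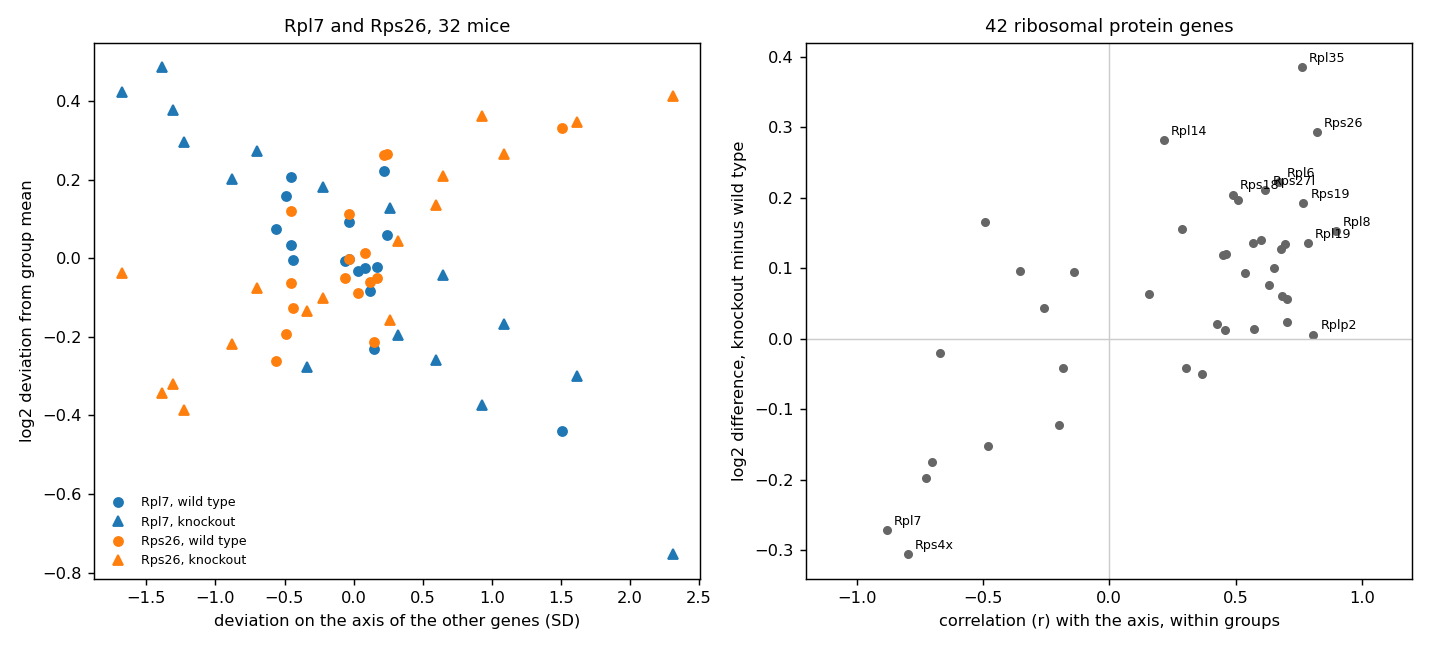
Left, deviation of Rpl7 and Rps26 from their group mean (log2) against each mouse's deviation on the leading within-group axis of the 10972 other genes (SD units); circles are wild type and triangles labelled knockout. Right, correlation of each of the 42 genes with that axis against its log2 difference between labelled knockout and wild type; Rpl7 (-0.88) falls and Rps26 (0.82) rises along the axis.

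With the score on this axis as a covariate, 3 of the 42 genes were called for genotype in place of 7. Of the 7, Rpl35 (0.25, limma adjusted p = 0.0109) and Rps27l (0.15, limma adjusted p = 0.0235) were still called. Rps4x went to -0.16 (limma adjusted p = 0.0717), Rps26 to 0.15 (0.091), Rpl6 to 0.14 (0.0547), Rpl14 to 0.25 (0.0904) and Rpl22 to -0.09 (0.21). In the mean TAC comparison Rpl3l (-0.97, limma adjusted p = 1.56e-06) and Rps27l (0.21, limma adjusted p = 0.000435) were called and Rpl35 (0.12), Rps26 (0.07), Rps19 (0.07) and Rpl7 (-0.05) were not. The score itself differed between groups, so this fit also takes out what surgery and genotype share with it. Without the 4 mice, 7 genes were called for genotype, 8 for the mean TAC response, 4 in wild-type males and 13 in males labelled knockout, and Rpl3l and Rps27l were at -0.82 and 0.31 in the mean TAC comparison. The share of all genes called was counted for neither fit, so a change over all genes cannot be told from one in the set.

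RNA quality and cell markers were set against the same axis, as deviations from group means over 32 mice. For the Gapdh and actin ratios of 3′ over 5′ probe sets Pearson's r was 0.12 and -0.28 (Spearman's rho 0.05 and -0.20), with permutation p of 0.589 and 0.354, and 0.08 and -0.09 without the 2 farthest mice. For the array median it was -0.43 (rho -0.39; permutation p = 0.046, 0.138 adjusted over 6 relations; -0.41 without 2 mice). For fibroblast markers it was -0.49 (rho -0.48; permutation p = 0.0118, adjusted 0.0708; -0.48 without 2 mice). For cardiomyocyte and macrophage markers it was 0.04 and 0.06 (rho 0.07 and 0.08; permutation p of 0.768 and 0.772). None passed after adjustment, and the part of these measures in the genotype differences was not tested. An 18S rRNA control probe set ranged from 10.36 to 15.49 (log2) over the 32 arrays. Its relation to the axis and to the genes of the set was not tested.

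Many of the 34 brighter genes varied together within groups, and some ran the other way. The median correlation over their 561 pairs was 0.54 as deposited and 0.33 after quantile normalization, where other genes of that brightness had 0.08 and 0.01. Pairs above 0 made up 77.7% and 64.9%, against 56.6% and 51.1% among those other genes. As deposited, the median correlation with the rest was negative for Rpl7 (-0.39), Rps4x (-0.24), Rpl22 (-0.19), Rpl4 (-0.10) and Rps24 (-0.07). The pairs share arrays, so this is a description.

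For the other lists, TAC counts are from the mean over strata, where 23.5% of all genes were called higher and 17.8% lower as deposited and 23.3% and 18.2% after quantile normalization. Of other genes of the ribosome, 10 fall outside the symbol rule and 6 of them were tested. In that comparison 0 were called as deposited and 2 higher after quantile normalization. In males labelled knockout 2 were called higher on both scales, beside 19.6% and 18.9% of all genes. Rpsa (0.27 ± 0.07, limma adjusted p = 0.011), Fau (0.25 ± 0.06, limma adjusted p = 0.0116) and Rps4l (0.60 ± 0.13, limma adjusted p = 0.00377) were higher in the mice labelled knockout, where 9.1% of all genes were. Rpsa and Fau encode small-subunit proteins. Of 79 ribosome assembly factors 20 were higher after TAC and 6 lower, with a median of 0.06 (20 and 8 after quantile normalization). Rrp12, an export factor for ribosomal subunits, was 0.92 ± 0.10 higher, Nhp2, a box H/ACA protein, 0.66 ± 0.09, Bysl, needed for the small subunit, 0.60 ± 0.09, and Tsr1 0.43 ± 0.06 (limma adjusted p from 3.52e-08 to 5.04e-06). Of 15 genes of RNA polymerase I and rRNA synthesis 0 were higher and 1, Twistnb, lower (-0.32 ± 0.08) on both scales in the mean over strata. In wild-type females 1 was higher, where 2.05% of all genes were as deposited and 2.14% after quantile normalization.

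Of 25 genes that control translation 9 were higher after TAC and 3 lower (7 and 4 after quantile normalization), beside 23.5% and 17.8% of all genes. Myc, a driver of ribosome production, was 1.22 ± 0.16 higher and Eif4ebp1, the translation repressor under mTOR, 0.39 ± 0.07 (limma adjusted p = 5.81e-07 and 6.84e-05). Of 42 initiation factors 12 were higher and 2 lower (11 and 1 after quantile normalization), and Eif6, also counted as an assembly factor, which keeps free large subunits apart from small ones, was 0.46 ± 0.09 higher (limma adjusted p = 0.000231). Of 19 other mRNAs with a TOP tract 6 were higher and 1 lower (9 and 1 after quantile normalization), with Vim at 0.69 ± 0.08 and Pabpc1, the poly(A)-binding protein, at 0.46 ± 0.07 (limma adjusted p = 1.26e-07 and 1.31e-05). Vim is also a fibroblast and endothelial gene. Of 11 elongation genes 1 was higher, Eef1b2 (0.19 ± 0.05), and 1 lower, Eef1d (-0.15 ± 0.06). After quantile normalization 3 were higher and 1 lower. In males labelled knockout 3 were higher as deposited and 4 after quantile normalization, beside 19.6% and 18.9% of all genes.

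The proteins of the mitochondrial ribosome are encoded by other genes. Of 76 tested, 10 were higher and 20 lower after TAC (median -0.04; 12 and 20 after quantile normalization), beside 23.5% and 17.8% of all genes, with Mrpl39 at -0.48 ± 0.07, Mrps31 at -0.36 ± 0.06 and Mrpl54 at 0.49 ± 0.09 (limma adjusted p = 3.72e-06, 2.86e-05 and 4.55e-05). In the mice labelled knockout 20 were higher and 4 lower (median 0.13; 17 and 4 after quantile normalization), beside 9.1% and 7.6% of all genes.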

How the data were processed

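Left ventricle RNA of 32 mice was hybridised to 1-colour Affymetrix arrays. The deposited values are MAS5 (version 5.0) signal intensities scaled by the authors, per the submitters' processing notes and the values themselves. No further step is named there. The file holds no detection calls. From these intensities log2(signal + 32) was computed, 1 probe set per gene was kept (highest mean), genes below the median level were left out, and a model with 8 group means was fitted in limma 3.58.1 (R 4.3.3) with a trend in the prior variance. P-values were adjusted by Benjamini-Hochberg within each of 11 comparisons and read at 0.05. Replicates are 4 mice per group, and their number limits the precision. Scripts were tested on simulated data. Figures were drawn with matplotlib 3.10.9.

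The members and gene lists were chosen with earlier results of these data known. Named genes were, per comparison, up to 12 called members (the 2 with the smallest p where none was called), a fixed panel of ribosomal protein genes, the 3 members with the largest and smallest spread within groups, and up to 4 genes per other list. Genes named for their place on the axis or in several-symbol probe sets were chosen after their values were seen. Alternatives were quantile or median scaling, pseudocounts of 1 and 128, no filter or one at the 75th percentile, other probe set rules, no variance trend, the Gapdh ratio as a covariate, a replicate block, only the arrays compared, and leaving out each mouse. The fits with the axis as a covariate, without 4 mice and with every probe set as its own row were added after seeing the data. Of the chosen probe sets 14 carry the suffix x and 2 the suffix s. The manufacturer gives these to sets that can bind related transcripts, so signal of paralogs and pseudogenes may be mixed. Another 14 carry the suffix a, and mixing of signal in them was not tested. With each of 83 probe sets as its own row, 1 was called higher in wild-type males as deposited, without a count over all probe sets. For 19 genes with several tested probe sets, all had the same sign in 12 for the mean TAC comparison and in 13 for genotype, as deposited.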

Additional observations from a re-analysis of the deposited data

Results flagged for a closer look

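For 30 named genes and the mean of the set, 248 groups of 4 mice were examined for a mouse far from the other three (log2 signal as deposited), and 14 stood apart; chance gives about 5%, or 12.4. Males labelled knockout gave 3 from sham mouse 4, with Rps19 at 13.57 (next 13.06), Rpl19 at 14.14 (next 13.82) and Rpl12 at 8.51 (next 7.93). This mouse is also the farthest along the axis of other genes. Among their TAC mice, mouse 4 stood apart for Rpl11 at 14.11, mouse 1 for Rps3 at 13.19 and mouse 2 for the mean of the set at 13.31. In wild-type female shams mouse 3 stood apart for Rps14 at 14.89 and for the mean of the set at 13.33. In wild-type female TAC mice these were mouse 2 for Rpl14 at 6.80 and mouse 4 for Rps6 at 9.74. In wild-type males they were sham mouse 1 for Rpl13a at 14.45, sham mouse 2 for Rps19 at 13.16 and TAC mouse 1 for Rpl27a at 10.77. In female TAC mice labelled knockout mouse 2 stood apart for Rps15 at 14.29.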

How the results depend on the processing

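Counts below are of the 42 genes called by limma, and medians are of their log2 differences. With quantile normalization the calls were 14 in males labelled knockout, 17 in the mean TAC comparison and 17 for genotype. Of all genes 32.2%, 41.5% and 17.9% were called there. The median was 0.058 in wild-type males and 0.049 for the sex difference of the wild-type response. For the male genotype difference of the response it was 0.13. Centring arrays on their median gave 2 calls in males labelled knockout and 16 for genotype. Over all genes tested, 1890 were then called higher and 1432 lower in those males, and 1583 higher and 415 lower for genotype. With no filter there were 0, 2 and 3 calls in females labelled knockout, males labelled knockout and the mean TAC comparison, and with the Gapdh ratio as a covariate 0, 1 and 2. With only the arrays compared there were 1 and 3 in wild-type females and males and 0 and 1 in females and males labelled knockout. The axis as a covariate gave 2 and 4 in wild-type females and males, 3 in males labelled knockout and 3 for genotype. Without the 4 mice farthest along the axis there were 1, 4 and 13 in these strata and 1 for the male genotype difference, whose median was then 0.40. For the fits of this paragraph other than quantile and median scaling, shares over all genes were not counted. The causes were not tested.

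Leaving out 1 mouse gave 0 to 4 calls in wild-type males, 0 to 1 in females and 1 to 13 in males labelled knockout, 3 to 8 in the mean TAC comparison, 0 to 1 for the male genotype difference (1 without male sham mouse 4 labelled knockout) and 5 to 16 for genotype. Over all settings no named gene that was called changed sign. Small medians did, among them that of wild-type males with quantile normalization, of wild-type females with the Gapdh covariate (-0.014) and without TAC mouse 1 (-0.033), of the mean TAC comparison with the Gapdh (-0.001) or axis (-0.0075) covariate, of the sex difference under the knockout label with median centring (0.028), and of the female genotype difference without wild-type TAC mouse 4 (-0.028). Rpl3l and Rps27l stayed called in the mean TAC comparison under every setting run. With a replicate block the calls were 5 for the mean TAC comparison, 6 in males labelled knockout and 7 for genotype. Over all genes tested, 2541 were then called higher and 1916 lower in the mean TAC comparison. The counts over all genes were 2108 higher and 1368 lower in males labelled knockout, and 946 higher and 755 lower for genotype. Same-numbered mice did not deviate together throughout (correlations from -0.34 to 0.585), so the numbers were not taken as pairs. Probe sets not unique to a gene, 4 mice per group and the absence of detection calls limit these results.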
